A study of Mus musculus with 16 samples.

Results

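Itgb1bp3, now named Nmrk2, and 8 further genes of NAD metabolism were followed in mouse gastrocnemius muscle. Members were all array probes, control spots aside, whose gene name in the scanner files was Itgb1bp3, Nampt (written there as Pbef1), Nmnat1, Nmnat3, Nnmt, Nadk, Nnt, Sirt1 or Sirt3. The 9 genes, of 17016 named on the array, had 15 of the 41174 probes of the array, and 14 of the 15 were among the 19398 probes with a mean signal of at least 2 times the local background in both channels. Itgb1bp3 was chosen by its difference in log2 ratio between the 2 groups of mice, which ranked as number 4 in absolute size among these probes, next to Prm1 at -0.99 and Prm2 at -0.96 on the log2 scale. Its difference is therefore given as a description with no test. The other members were chosen for their function, though with earlier results of these data known, and were tested.

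The study asked how adding n-3 long-chain polyunsaturated fatty acids to a low dose of rosiglitazone, an antidiabetic drug that activates PPARγ, changed gene expression in muscle of dietary obese mice. All 16 animals were male C57BL/6N mice that received, from 3 months of age and for 8 weeks, a high-fat diet (cHF) with lipids at 35% of the diet and with rosiglitazone at 10 mg per kg of diet. The 8 cHF+ROSI mice received nothing else, whereas for the 8 mice of cHF+F+ROSI 15% of the dietary lipids was replaced by an n-3 fatty acid concentrate. Before killing, every mouse was fasted for 10 h by day and then ate Chow overnight, so that all values come from re-fed animals, and no group without rosiglitazone is analysed here. RNA of each mouse, labelled with Cy5, was hybridised with a common Cy3-labelled pool of muscle RNA on its own array, and expression is given as log2(Cy5/Cy3) after normalization within the array, where 0 is the typical ratio of mouse to pool on that array.

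NAD carries electrons in fuel oxidation and is also split by enzymes that use it as a substrate, so that muscle keeps remaking it from nicotinamide and related precursors. Nampt turns nicotinamide into nicotinamide mononucleotide, the Nmrk kinases reach the same intermediate from nicotinamide riboside, and the Nmnat enzymes finish NAD. Sirtuins and related enzymes release nicotinamide again, Nnmt methylates it for disposal, and Nadk and Nnt serve the phosphorylated pool, NADP. Itgb1bp3 encodes the nicotinamide riboside kinase of striated muscle, and its older name comes from its description as a muscle protein that binds the β1 integrin chain.

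The promoter of the gene on which the results turn is shown because no probe sequence was used here. The window is the 250 bases before the start of Nmrk2 in RefSeq, assembly GRCm38.p6, chr10:81202038-81202287, minus strand, written 5′ to 3′ with matches to TATAAA and CANNTG in capitals.

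Nmrk2: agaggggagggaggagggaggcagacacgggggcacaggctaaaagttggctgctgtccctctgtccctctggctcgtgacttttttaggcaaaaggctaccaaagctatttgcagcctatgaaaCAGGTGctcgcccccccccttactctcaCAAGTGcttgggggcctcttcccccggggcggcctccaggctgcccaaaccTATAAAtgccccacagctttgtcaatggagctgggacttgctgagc

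TATAAA, the core of the TATA box, starts 46 bases before the gene start, and 12.4% of 32851 RefSeq promoter windows of this length hold it on either strand. CANNTG, the E-box letters that myogenic and clock factors can bind, occurs 2 times, starting 125 and 97 bases before the start, and 66.2% of windows hold at least 1. The letters AGGTCA, the core unit of nuclear receptor elements such as those of PPARs, were not in this window and were in 14% of all windows. The CArG box and the MEF2 site, searched by their usual consensus on both strands, were also not matched in it, and were in 1.47% and 2.92% of windows. None of the 3 matches overlapped another, and a match describes letters, not occupancy.

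The arrays were alike in brightness with few exceptions. Median Cy5 signal over background was between 2.98 and 3.64 on 15 arrays and 2.33 on that of cHF+ROSI replicate 1. Where the pool was read, in Cy3, cHF+F+ROSI replicate 2 stood apart: 1406 of 19398 probes (7.25%) lay more than 0.5 log2 units below the median of the other arrays, against at most 285 probes on any other array. The differences of Itgb1bp3, Nampt, Nnt and Sirt1 A_52_P358612 and the correlations between members are also given without the array they rest on. Fast fibre genes (Myh4, Acta1, Ckm and 7 others), which mark fast skeletal muscle, read between 6794 and 11941 times background in Cy5. The 4 slides, each scanned at its own time, carried 4 arrays each, always with cHF+ROSI on array positions 1 and 3 and cHF+F+ROSI on 2 and 4, and the effects of diet and of array position cannot be told apart.

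With n-3 fatty acids, 5 of 8 mice had more Itgb1bp3 than the highest cHF+ROSI mouse, and the other 3 did not. Its single probe, A_51_P369762, lies at chr10:80602417-80602476 on the minus strand of build mm8, and read 1682 times background in Cy5 and 232 times in Cy3. The log2 ratio in cHF+ROSI was lowest at -0.94 in replicate 3, had a median of -0.03 and was highest at 0.27 in replicate 8. In cHF+F+ROSI it was 2.09, 1.75 and 1.66 in replicates 1, 2 and 4, then 0.93 in replicate 7, 0.59 in replicate 5, 0.21 in replicate 8, -0.35 in replicate 3 and -0.50 in replicate 6. The groups thus overlapped through 3 cHF+F+ROSI mice that lay within the range of cHF+ROSI, and the cHF+F+ROSI values spread more, with an SD of 0.98 against 0.44 (n = 8 each). The means differed by 0.98 on the log2 scale (1.97-fold) and the medians by 0.79.

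**Figure D1:**
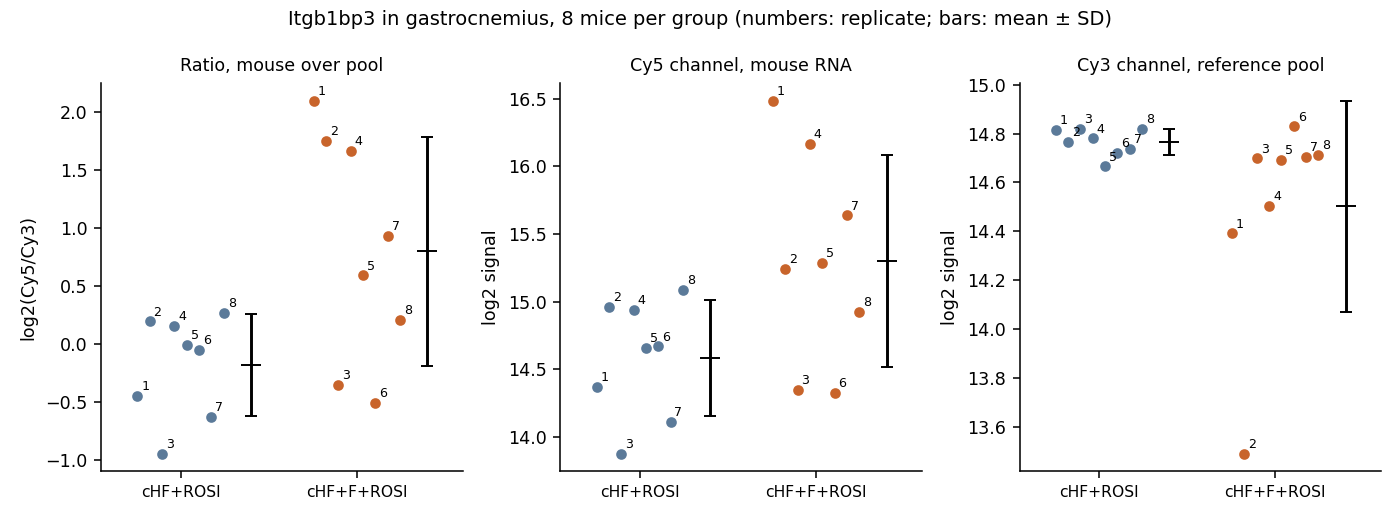
Itgb1bp3 in each mouse as log2(Cy5/Cy3), as Cy5 log2 signal and as Cy3 log2 signal, by group; numbers are replicates and bars the mean ± SD of 8 mice. In Cy3, replicate 2 of cHF+F+ROSI lies at 13.5 while all other arrays lie between 14.4 and 14.8.

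Both channels entered this ratio, and they did not contribute alike in the 3 highest mice. In the Cy5 channel, which held the RNA of the mouse, cHF+ROSI ranged from 13.87 to 15.09 log2 units, and cHF+F+ROSI from 14.33 to 16.48. The highest Cy5 values were 16.48 in replicate 1, 16.17 in replicate 4 and 15.64 in replicate 7 of cHF+F+ROSI. Replicate 2, second highest by ratio, had a Cy5 value of 15.24, just above the highest cHF+ROSI mouse and below replicate 5 at 15.28. Its median Cy5 signal before normalization was 77176, within the cHF+ROSI range of 23662 to 97001.

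The pool was the same on every array, and on the cHF+ROSI arrays its Cy3 signal lay between 14.67 and 14.82 log2 units. On the cHF+F+ROSI arrays it was 13.49 in replicate 2, 14.39 in replicate 1 and 14.50 in replicate 4, all 3 below every cHF+ROSI array, and between 14.69 and 14.83 in the other 5. In median signal this was 4362 in replicate 2, 8240 in replicate 1 and 9070 in replicate 4, against 10165 to 14388 elsewhere. The 3 arrays with the lowest Cy3 value were therefore the 3 with the highest ratio. No spot of the probe was flagged as saturated in either channel.

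On replicate 2, Itgb1bp3 lay 1.23 log2 units below the median Cy3 of the other arrays, and 0.614% of all probes fell at least as far on that array. On replicates 1 and 4 the shortfall was 0.33 and 0.22, and 0.407% and 2.54% of probes fell as far. Across the 15 arrays without replicate 2, Cy5 and Cy3 of this probe were negatively correlated, with r = -0.80 as a description, and r was -0.39 with it. Both values come after normalization of the ratio, which shifts the channels of a spot in opposite directions, so they are not independent. The part of any cause in the low Cy3 values was not tested.

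In Cy5 alone the group means differed by less. They differed by 0.72 log2 units in the Cy5 channel of the normalized ratios, with 5 of 8 cHF+F+ROSI mice again above all of cHF+ROSI, and by -0.26 in Cy3. With Cy5 signals quantile normalized without the pool, the difference was 0.73. Without replicate 2 the difference of the ratio fell from 0.98 to 0.84, and that in Cy5 was 0.73. Within the slides, each with 2 mice per group, cHF+F+ROSI was higher by 0.82, 1.52, 0.25 and 1.33 in slides 1 to 4.

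By rank among the 19398 probes, the difference moved from number 4 to number 16 without replicate 2 and to number 24 in Cy5 alone. The direction was the same in all 28 refits and left-out arrays that were run.

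The other 8 genes had smaller differences between the diets. Of their 13 probes past the background filter, 0 passed an adjusted p of 0.05 in limma, where 0.0155% of all probes did, and 1 passed an unadjusted p of 0.05, where 7.46% of all probes did. By direction this was 0 higher, against 3.5% of all probes, and 1 lower, against 3.96%. Their log2 fold changes, cHF+F+ROSI minus cHF+ROSI, were above 0 for 7 probes and below 0 for 6, with a median of 0.00, and the median of all probes was -0.00. The largest in absolute size was 0.28, and the 95% intervals of 11 of the 13 lay wholly within 0.5 log2 units of 0.

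**Figure D2:**
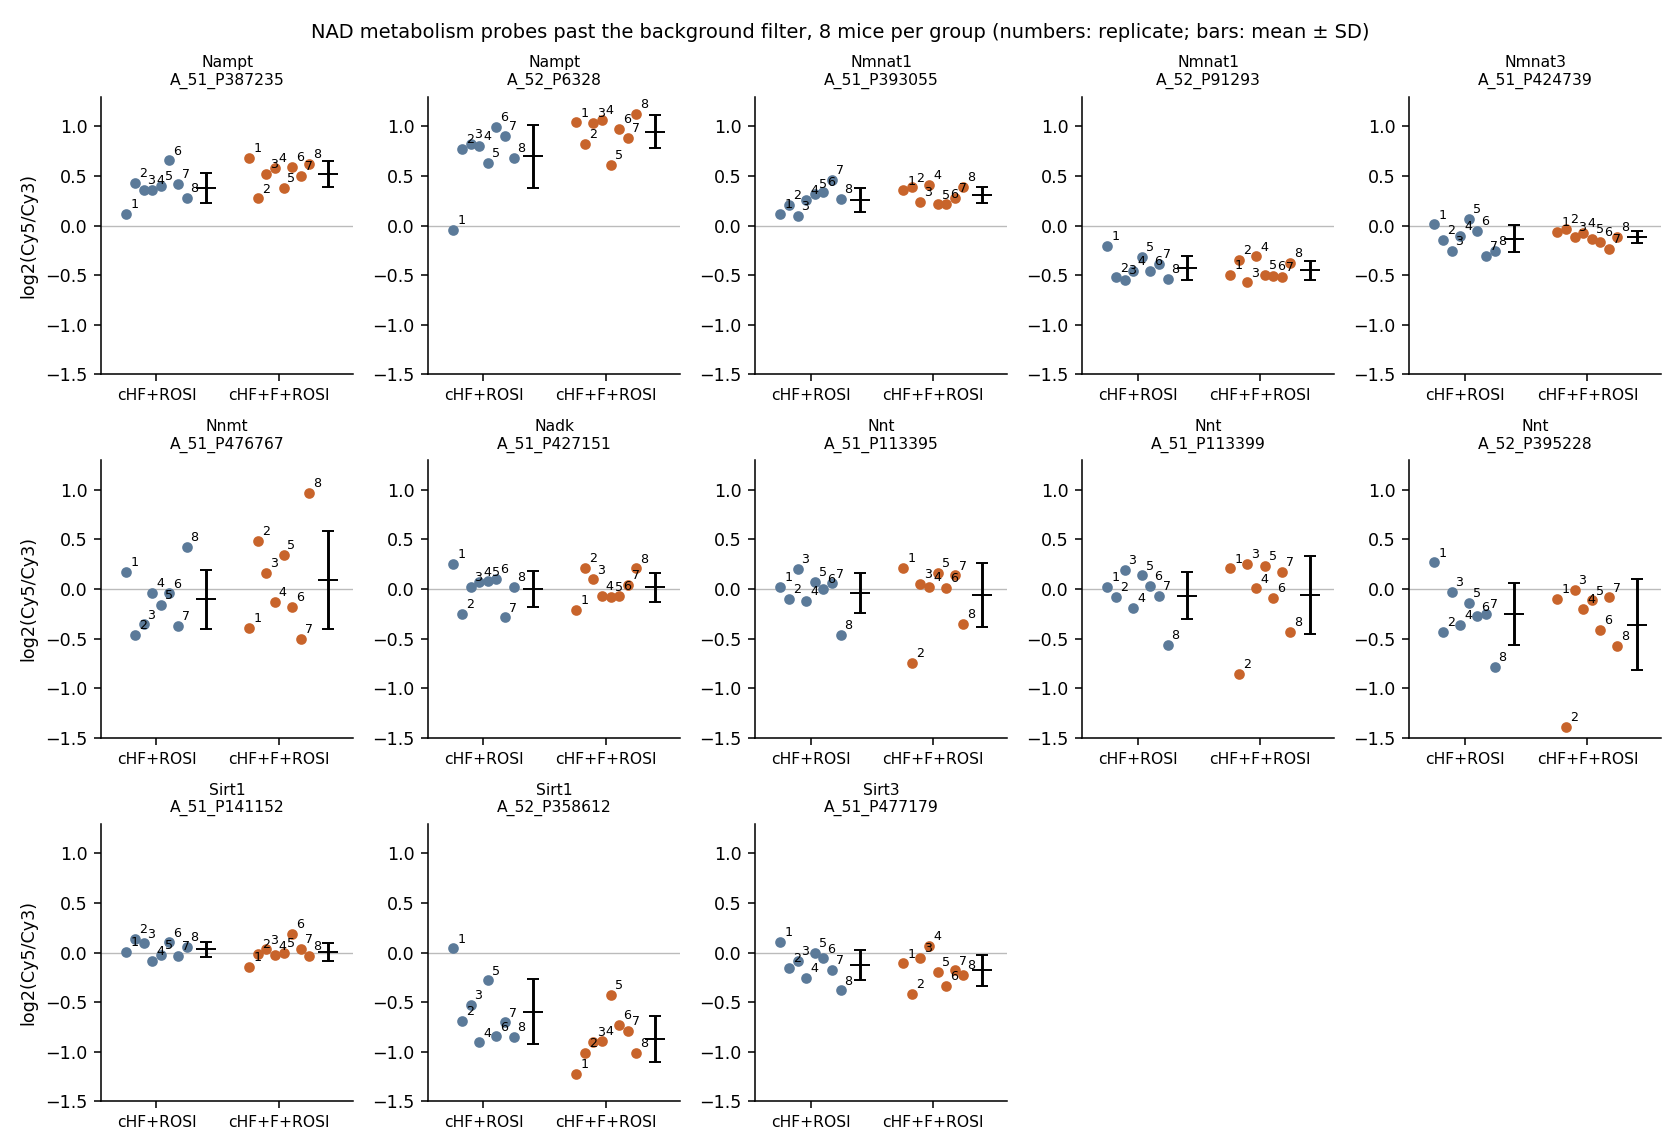
The 13 probes of the other 8 genes, log2(Cy5/Cy3) of each mouse by group, all on 1 scale; numbers are replicates and bars the mean ± SD of 8 mice. The groups overlap in every panel; replicate 1 of cHF+ROSI lies apart for Nampt A_52_P6328 at -0.04 and replicate 2 of cHF+F+ROSI for Nnt A_52_P395228 at -1.39.

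Nampt, the rate-limiting enzyme of NAD salvage, had 2 probes, both with a higher mean in cHF+F+ROSI and neither past the adjusted test. Probe A_51_P387235 (chr12:33435857-33435916, plus strand, mm8) ranged from 0.11 over a median of 0.38 to 0.66 in cHF+ROSI and from 0.27 over 0.55 to 0.68 in cHF+F+ROSI. The groups overlapped almost fully, with 1 cHF+F+ROSI mouse above all of cHF+ROSI. The log2 fold change was 0.14 ± 0.07 (SE), with an unadjusted p of 0.0602 and an adjusted p of 0.684 in limma, and an exact two-sided permutation p of 0.0687. Its lowest value in each group was on one of the 2 arrays named above: without cHF+ROSI replicate 1 the difference was 0.10, with an unadjusted limma p of 0.130, and without cHF+F+ROSI replicate 2 it was 0.18, with 0.0178.

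The second Nampt probe, A_52_P6328 (chr12:33424447-33424506, plus strand), ranged from -0.04 over 0.79 to 1.00 in cHF+ROSI and from 0.61 over 1.00 to 1.12 in cHF+F+ROSI. The low end of cHF+ROSI was replicate 1, the dim array, and the other 7 mice lay between 0.63 and 1.00. The log2 fold change was 0.25 ± 0.12, with an unadjusted p just above 0.05, an adjusted p of 0.669 in limma and an exact two-sided permutation p of 0.0448. Without that mouse it fell to 0.14, with an unadjusted limma p of 0.0730, and without cHF+F+ROSI replicate 2 it was 0.26, with 0.0480. The 2 probes moved together among mice, with r = 0.80 for deviations from the group means over 16 mice and 0.76 without cHF+ROSI replicate 1, and both differences were above 0 within each of the 4 slides.

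The Nmnat genes, which join nicotinamide mononucleotide to the adenylate part of NAD, differed little. Nmnat1, the nuclear enzyme, had probes at chr4:148312426-148312485 and chr4:148312507-148312566, both on the minus strand. The first, A_51_P393055, ranged from 0.10 over 0.26 to 0.46 in cHF+ROSI and from 0.21 over 0.31 to 0.41 in cHF+F+ROSI. The second, A_52_P91293, ranged from -0.55 over -0.46 to -0.21 and from -0.57 over -0.50 to -0.31. Differences were 0.05 (95% interval -0.06 to 0.17) and -0.02 (-0.14 to 0.10). Nmnat3, the mitochondrial enzyme, at chr9:98220659-98220718 on the plus strand, ranged from -0.31 over -0.13 to 0.07 in cHF+ROSI and from -0.23 over -0.12 to -0.04 in cHF+F+ROSI, a difference of 0.01 (-0.10 to 0.13). In none of the 3 probes did the group means differ by more than the SD between mice, which was between 0.06 and 0.14.

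Among the genes of the NADP pool, Nadk, the cytosolic NAD kinase at chr4:154434587-154434646 on the plus strand, ranged from -0.29 over 0.05 to 0.26 in cHF+ROSI and from -0.21 over -0.01 to 0.21 in cHF+F+ROSI. Its difference was 0.01, with a 95% interval from -0.15 to 0.18. Nnt, the proton-driven transhydrogenase of the inner mitochondrial membrane, is disrupted in the C57BL/6J strain but not in the C57BL/6N mice used here. Its 3 probes past the filter lay on the minus strand of chromosome 13 between 120454595 and 120455233, and read between 43.6 and 275 times background in Cy5. The fourth probe, A_52_P593890, at chr13:120512845-120512903 and named for the transcript AK087064, read 2.13 times background in Cy5 and 1.63 times in Cy3, and was well above background on 2 of 16 arrays in Cy5 and on 0 in Cy3.

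Nnt differed between mice more than between diets. For probe A_52_P395228, cHF+ROSI ranged from -0.79 in replicate 8 over -0.26 to 0.27 in replicate 1, and cHF+F+ROSI from -1.39 in replicate 2 over -0.16 to -0.01 in replicate 3. The lowest mice by all 3 probes were replicate 2 of cHF+F+ROSI and replicate 8 of each group. The 3 probes moved together, with r between 0.91 and 0.97 for deviations from the group means over 16 mice, and between 0.81 and 0.95 without replicate 2 of cHF+F+ROSI. Differences between diets were -0.02, 0.00 and -0.11 for A_51_P113395, A_51_P113399 and A_52_P395228, with unadjusted p-values of 0.867, 0.990 and 0.551 in limma. Without replicate 2 of cHF+F+ROSI they were 0.08, 0.12 and 0.04, so that the sign of 2 of them turned with that array.

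Nnt followed the slow fibre genes, a list of 8 genes of oxidative, slowly contracting fibres that includes Myh7 and Tnnt1. The mean log2 ratio of that list was -2.09 in replicate 2 of cHF+F+ROSI and -1.22 in replicate 8 of cHF+ROSI, and between -0.61 and 0.68 in the other 14 mice. All 8 of its genes passed the filter, 7 had a lower mean in cHF+F+ROSI (median log2 fold change -0.40), and 0 passed an adjusted or an unadjusted p of 0.05 in limma. For A_52_P395228 the deviations from the group means correlated with those of the list at r = 0.91 and ρ = 0.79 over 16 mice, with adjusted permutation p-values of 0.0021 and 0.0114. For A_51_P113399 r was 0.88 and ρ 0.80 (adjusted permutation p-values 0.0021 and 0.0114), and for A_51_P113395 r was 0.87 and ρ 0.72 (0.0031 and 0.0508), so that the last passed by r and not by ρ. Leaving out the 2 mice farthest from the median of the list lowered r to 0.69, 0.56 and 0.61 for A_52_P395228, A_51_P113395 and A_51_P113399, and with slide means removed it was 0.90, 0.86 and 0.87. Without replicate 2 of cHF+F+ROSI alone it was 0.81, 0.74 and 0.77.

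These were among 104 relations, of the 13 probes other than that of Itgb1bp3 with 8 lists of cell type markers, with p-values from 100000 permutations of mice within groups and adjusted over all 104 for r and for ρ separately. Of these 5 passed an adjusted p of 0.05 by r and 3 by ρ. The share of all probes that would pass against the same lists was not computed, so these relations are not shown to be particular to the members. The lists were fast fibre, slow fibre, adipocyte, macrophage, endothelial, fibroblast, red blood cell and Schwann cell genes, and 0 genes of any of them passed an adjusted p of 0.05 between diets in limma. Slides held 4 arrays each, too few for a correlation of their own. In whole muscle, fewer cells of a type and less RNA per cell cannot be told apart.

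**Figure D3:**
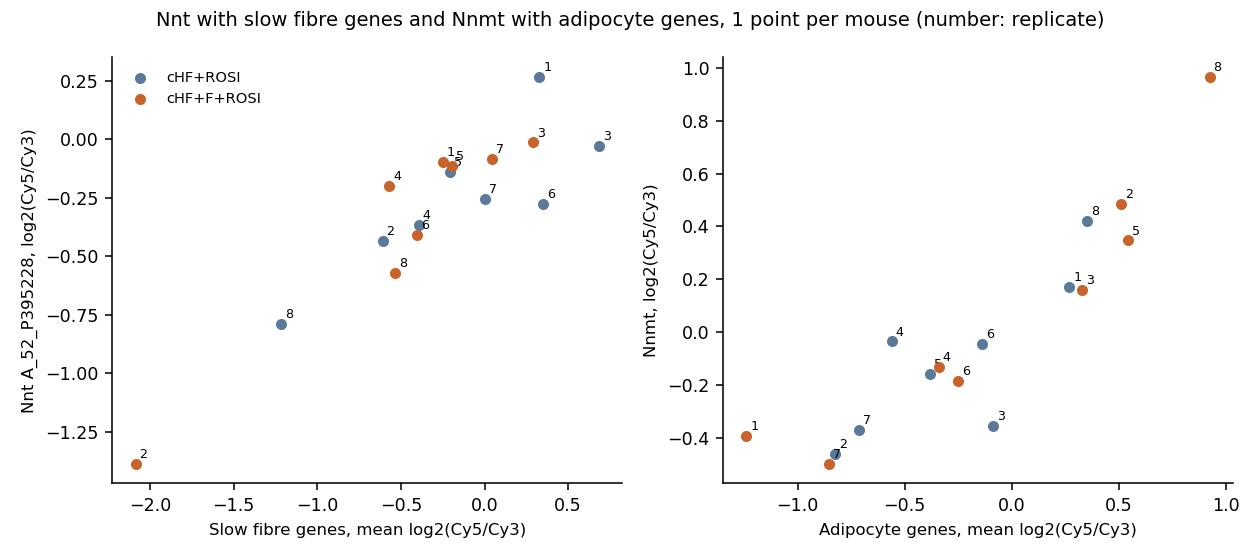
Nnt (probe A_52_P395228) against the mean of 8 slow fibre genes, and Nnmt against the mean of 8 adipocyte genes, all as log2(Cy5/Cy3), 1 point per mouse with its replicate number. Nnt is lowest at -1.39 in the mouse with the lowest slow fibre mean of -2.09, and Nnmt highest at 0.97 in the mouse with the highest adipocyte mean of 0.92.

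Nnmt, which methylates nicotinamide and thereby removes it from salvage, varied widely from mouse to mouse. The probe A_51_P476767 (chr9:48343977-48344036, minus strand, mm8) ranged from -0.46 over -0.10 to 0.42 in cHF+ROSI and from -0.50 over 0.01 to 0.97 in cHF+F+ROSI. Replicate 8 was highest in each group, and the groups overlapped. The difference was 0.20, with a 95% interval from -0.19 to 0.59, an unadjusted p of 0.298 and an adjusted p of 0.854 in limma, and it fell to 0.07 without replicate 8 of cHF+F+ROSI.

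Nnmt followed the adipocyte genes (Adipoq, Cfd, Plin1 and 5 others), with r = 0.90 and ρ = 0.89 over 16 mice and adjusted permutation p-values of 0.0021 and 0.0062. The r was 0.90 without the 2 mice farthest from the median of the list and 0.93 with slide means removed. The mean of the list ranged from -0.82 to 0.35 in cHF+ROSI and from -1.24 to 0.92 in cHF+F+ROSI. All 8 of its genes passed the filter, and 0 of them passed an adjusted or an unadjusted p of 0.05 between diets in limma. For Nadk and the same list r was 0.67 (adjusted permutation p = 0.0514) and ρ 0.55 (adjusted permutation p = 0.472).

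Sirt1, the nuclear deacetylase that consumes NAD, had 2 probes that differed in the size of their differences. Probe A_52_P358612 (chr10:62732365-62732424, minus strand, mm8) ranged from -0.90 over -0.70 to 0.04 in cHF+ROSI and from -1.22 over -0.90 to -0.43 in cHF+F+ROSI. The highest value was again replicate 1 of cHF+ROSI, the dim array, and 3 of 8 cHF+F+ROSI mice lay below all of cHF+ROSI. The difference was -0.28 ± 0.13 (SE), with an unadjusted p of 0.0476, an adjusted p of 0.666 in limma and an exact two-sided permutation p of 0.0702. Without replicate 1 of cHF+ROSI it was -0.19, with an unadjusted p of 0.102 in limma, and without replicate 2 of cHF+F+ROSI it was -0.26, with 0.0785.

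The other Sirt1 probe, A_51_P141152 (chr10:62714859-62714918, same strand), lay within -0.08 to 0.13 in cHF+ROSI and -0.15 to 0.19 in cHF+F+ROSI, with medians of 0.03 and -0.01. Its difference was -0.03, with a 95% interval from -0.13 to 0.07 that did not reach the -0.28 of the first probe. The 95% interval of the first probe, from -0.55 to -0.003, overlapped it, and the 2 probes were not tested against each other. The Sirt1 probe with the lower values ran opposite to Nampt A_52_P6328 among mice, with r = -0.80 for deviations over 16 mice, as a description of 2 probes that both had their most distant value on the dim array. Without that array, replicate 1 of cHF+ROSI, r was -0.62. With Nampt A_51_P387235, r of Sirt1 A_52_P358612 was -0.53, and -0.30 without that array. Sirt1 A_51_P141152 did not share this, with r = 0.05 for Nampt A_52_P6328 and 0.07 for Nampt A_51_P387235. The 2 Sirt1 probes correlated with each other at r = 0.20, and at 0.32 without that array.

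Sirt3, the main deacetylase of the mitochondrial matrix, at chr7:140715026-140715085 on the minus strand, ranged from -0.38 over -0.12 to 0.11 in cHF+ROSI and from -0.42 over -0.19 to 0.07 in cHF+F+ROSI. Its difference was -0.06, with a 95% interval from -0.21 to 0.10 and an adjusted p of 0.906 in limma. Among mice it ran with Nnt, with r between 0.65 and 0.80 for the 3 Nnt probes as a description. Replicate 2 of cHF+F+ROSI was lowest for both genes, and without it r was between 0.53 and 0.78. With the slow fibre mean, which Nnt followed, r of Sirt3 was 0.67 (adjusted permutation p = 0.0863, and 0.472 by ρ). With the Schwann cell mean it was 0.62 (adjusted permutation p = 0.159). The part of fibre type in the relation of Sirt3 to Nnt was not tested.

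A wider set of 54 genes of NAD metabolism, in 6 lists, held no called gene either. Probes were on the array for 53 of them, and with 1 probe per gene, the brightest, 37 genes besides Itgb1bp3 were past the filter. Of these 0 passed an adjusted p of 0.05 and 3 an unadjusted p of 0.05 (7.46% of all probes), 1 higher (3.5%) and 2 lower (3.96%). This is near the share of all probes, and 17 were above and 20 below 0, with a median of -0.01 against -0.00 for all probes. By their brightest probe the 8 salvage genes tested lay between -0.04 and 0.14, while the second Nampt probe, A_52_P6328, was at 0.25. Nmrk1, the other nicotinamide riboside kinase (named BC016495 in the files), ranged from -0.04 over 0.18 to 0.38 in cHF+ROSI and from -0.05 over 0.36 to 0.44 in cHF+F+ROSI, a difference of 0.10 (95% interval -0.07 to 0.28).

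**Figure D4:**
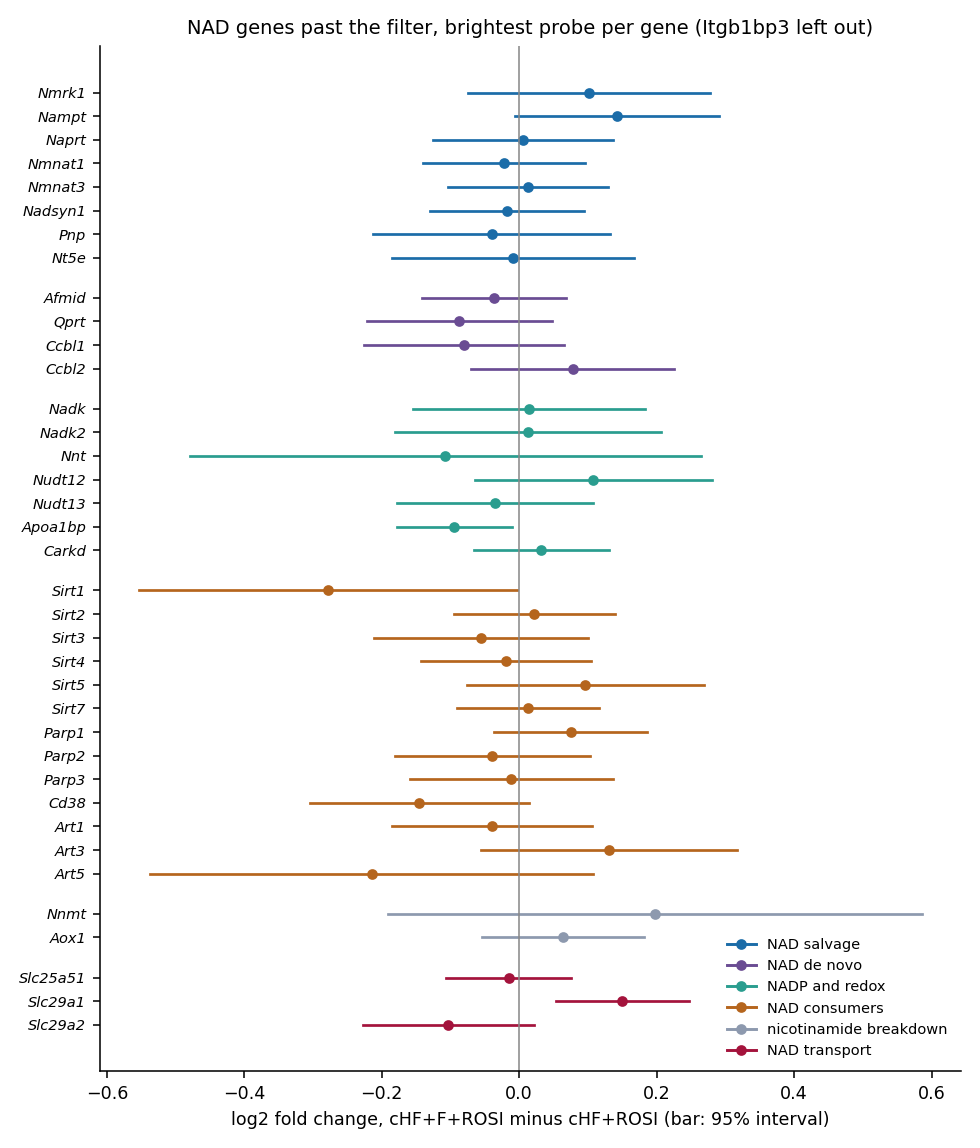
Log2 fold change with its 95% interval for the 37 NAD genes past the filter other than Itgb1bp3, each by its brightest probe, coloured by list. All lie between -0.28 and 0.20.

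The genes outside the 9 members with an unadjusted p of up to 0.05 were Slc29a1, a nucleoside transporter, and Apoa1bp, the epimerase that repairs hydrated NADH. Slc29a1 ranged from -0.09 over 0.00 to 0.12 in cHF+ROSI and from 0.07 over 0.17 to 0.30 in cHF+F+ROSI, so that 5 of 8 cHF+F+ROSI mice lay above all of cHF+ROSI. The difference was 0.15, with an unadjusted p of 0.0044 and an adjusted p of 0.406 in limma. Apoa1bp ranged from -0.25 over -0.22 to -0.09 and from -0.38 over -0.29 to -0.19, a difference of -0.09 with an unadjusted p of 0.0296 and an adjusted p of 0.621 in limma.

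The other differences among the largest were -0.21 for Art5, -0.15 for Cd38, 0.13 for Art3 and 0.11 for Nudt12. The first 3 were on the list of NAD consumers, and Nudt12 encodes a hydrolase of reduced dinucleotides. Their unadjusted p-values in limma were 0.177, 0.0712, 0.156 and 0.204. Of the 12 genes of synthesis from tryptophan, 4 passed the filter (Afmid, Qprt, Ccbl1 and Ccbl2), and Tdo2, Ido1, Ido2, Kmo, Kynu, Haao, Acmsd and Aadat did not.

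Of the 9 genes listed for the β1 integrin complex, which gave Itgb1bp3 its name, all passed the filter, 0 passed an adjusted p of 0.05 and 2 an unadjusted p of 0.05, as 7.46% of all probes did, with 1 in each direction. Itgb1bp2, the muscle chaperone melusin, ranged from -0.36 over -0.27 to 0.01 in cHF+ROSI and from -0.23 over -0.09 to 0.07 in cHF+F+ROSI, a difference of 0.15 with an unadjusted p of 0.0206 in limma. Itgb1, the β1 chain, had 3 probes past the filter, of which, as for every gene listed, only the brightest was used. This probe ranged from 0.05 over 0.26 to 0.28 and from 0.03 over 0.12 to 0.16, a difference of -0.12 with an unadjusted p of 0.0116 in limma. Adjusted p-values were 0.591 and 0.529.

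Genes whose pattern over the 16 mice was most like that of Itgb1bp3 were sought among 11119 named genes, as a description with no test. For deviations from the group means, the highest r were 0.86 for Fmnl3, 0.83 for Elk3, 0.83 for Polm, 0.82 for Hhex and 0.82 for Aurka. The lowest were -0.92 for Glul, the enzyme that makes glutamine, -0.90 for Tiparp, an ADP-ribosyltransferase that uses NAD, -0.87 for Tk2, -0.87 for Bcl7b and -0.86 for Arrdc2. Without replicate 2 of cHF+F+ROSI these r ranged from 0.80 to 0.89 and from -0.91 to -0.85. All points of a gene share the array, pool and normalization with those of Itgb1bp3.

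Glul ranged from -0.61 over -0.47 to 0.24 in cHF+ROSI and from -0.97 over -0.07 to 0.43 in cHF+F+ROSI, with its lowest values in cHF+F+ROSI replicates 1, 2 and 4, where Itgb1bp3 was highest. Its difference between diets was 0.07, so that it mirrored Itgb1bp3 among mice of 1 diet and not between diets. Arrdc2 spanned the widest range, from -1.49 to 1.06 in cHF+F+ROSI. For the values themselves, with the difference between diets included, r was highest for Aurka at 0.85, Dock11 at 0.84, Itgb1bp2 at 0.81, Ift122 at 0.81 and Hhex at 0.80.

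**Figure D5:**
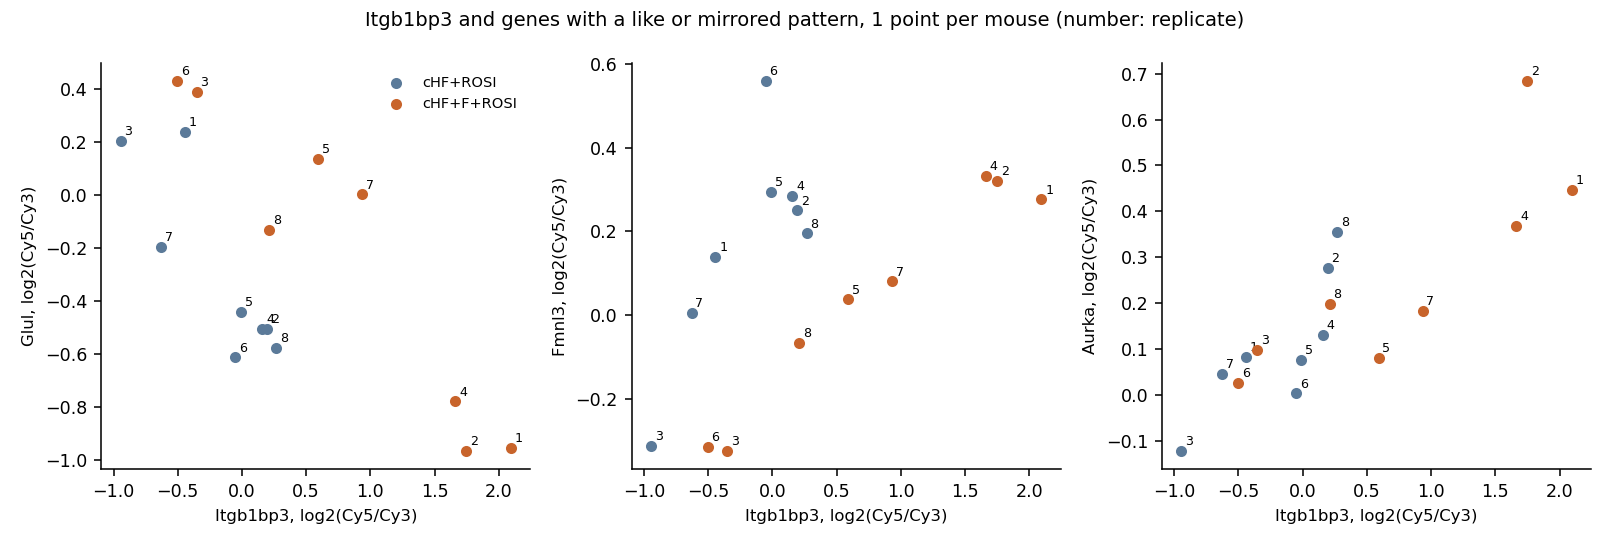
Itgb1bp3 against Glul, Fmnl3 and Aurka, all as log2(Cy5/Cy3), 1 point per mouse with its replicate number. In both groups Glul is lower where Itgb1bp3 is higher, with r = -0.92 for deviations from the group means.

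Among the 8 marker lists, r of the deviations of Itgb1bp3 over the 16 mice, as a description with no test, ranged from -0.53 with the slow fibre mean to 0.68 with that of 6 endothelial genes, and was 0.64 with that of 8 macrophage genes. Without replicate 2 of cHF+F+ROSI these 3 were -0.42, 0.62 and 0.61. The macrophage mean ranged from -0.51 to 0.40 in cHF+ROSI and from -0.38 to 0.25 in cHF+F+ROSI, and 0 of its 8 genes passed an unadjusted p of 0.05. The endothelial mean ranged from -0.24 to 0.07 and from -0.39 to -0.06, and 3 of its 6 genes had an unadjusted p of up to 0.05 in limma, all lower in cHF+F+ROSI, as 3.96% of all probes were, where Itgb1bp3 had its higher mean. For Sirt1 A_51_P141152, r with the macrophage mean was -0.75 (adjusted permutation p = 0.0116, and 0.135 by ρ). The other Sirt1 probe, A_52_P358612, had r = -0.24 with it (adjusted permutation p = 0.841), so that the relation was that of 1 of the 2 probes. For Nmnat3, r with the endothelial mean was 0.64 (adjusted permutation p = 0.0514, and 0.0508 by ρ). The part of these cell types in the members' values was not tested beyond these correlations.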

How the data were processed

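Gene expression in gastrocnemius was measured, 8 mice a diet, on 16 two-colour Agilent arrays. The cHF+ROSI RNA had been labelled in duplicate, for a further study as well, and the Cy3 pool held groups not analysed here. The authors deposited scanner files, in which Feature Extraction (version 10.5.1.1 per the file headers, 10.5.5.1 per the submitters' processing notes) gives spot and background intensities, and a table of normalized log2 values, deposited with column numbers 9 to 16 for cHF+F+ROSI that were matched to the group only. Probe coordinates are those of the files (mm8), and no annotation of that build was used.

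With limma 3.58.1 in R 4.3.3, median intensities were corrected by normexp (offset 50) on all spots. Control spots were then left out, probes kept whose signal averaged 2 or more times background in each channel, outlier-flagged spots left out of their array, log2(Cy5/Cy3) normalized by loess and spots of a probe averaged. Channel values are after loess and Aquantile scaling. limma was fitted over 19398 probes and p-values adjusted by Benjamini-Hochberg over all of them. The fit was tested on simulated data. Single probes were also tested by exact two-sided permutation over 12870 splits of the mice, and intervals are 95%. The precision is limited by 8 arrays per group.

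RefSeq symbols matched by accession for 24375 of 41174 probes, and the remaining ones are called as in the scanner files. The members and gene lists were chosen with earlier results of these data known. Named were all 9 members by every probe, other listed NAD genes with an unadjusted p of up to 0.05 or among the 5 largest differences, and the 5 genes at each end of the correlation of deviations, and the 5 highest by correlation of values, with Itgb1bp3. The genes of the β1 integrin list were named after their values were seen. No values agreed between 2 arrays closely enough to count as 1 sample: the highest correlation between 2 arrays was 0.916.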

Additional observations from a re-analysis of the deposited data

Results flagged for a closer look

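Of 48 sets of 8 values examined (each member probe, both channels of Itgb1bp3 and 8 marker lists, by group), 6 held 1 mouse far from the others of its group by Dixon's criterion at 95%, which chance gives in about 1 of 20 sets.

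For Nampt A_52_P6328, cHF+ROSI replicate 1 was at -0.040 (log2 ratio), while the other 7 mice lay between 0.63 and 1.00. For Nnt A_52_P395228, cHF+F+ROSI replicate 2 was at -1.39, with the others between -0.57 and -0.01. In the Cy3 channel of Itgb1bp3, the same replicate was at 13.49 log2 units, with the others between 14.39 and 14.83. It was also far off in the mean of the fast fibre genes, at 0.036 against 0.29 to 0.42, and of the slow fibre genes, at -2.09 against -0.57 to 0.29. For red blood cell genes the mean reached 0.94 in replicate 6 of cHF+F+ROSI, with the others between -0.60 and 0.04.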

How the results depend on the processing

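The Itgb1bp3 difference, 0.98 as reported, was between 0.73 (Cy5 alone) and 1.14 (scale normalization between arrays) in 12 other settings, and between 0.79 without cHF+F+ROSI replicate 1 and 1.17 without cHF+F+ROSI replicate 6 when 1 array was left out. With the mean Cy3 of all arrays in place of each array's own, chosen after seeing the data, it was 0.72. A constant Cy3 cancels between groups, so this is the Cy5 difference given above and not a further check. In Cy5 alone without cHF+F+ROSI replicate 2, also chosen after seeing the data, it was 0.74. Member probes and NAD list genes passing an adjusted p of 0.05 numbered 0 in all 13 other settings and with each array left out. At an unadjusted p of 0.05 the 14 settings gave 0 to 3 member probes and 1 to 6 list genes, while of the 19398 probes from 820 (median centring) to 2037 (Feature Extraction signals) had such a p. The labels gave same-numbered mice of the 2 groups no link beyond the number, though those numbered 2, 4, 6 and 8 also shared a slide. Their deviations correlated between -0.34 and 0.73, over 0.1 in 4 of 8 pairs. Of the cHF+F+ROSI mice, 2 of 8 correlated best with their own number. With the replicate block, the Itgb1bp3 difference was 0.98, and 0 member probes and 0 list genes passed. Over all probes the block gave 0 calls against 3, the methods' t-test 2, and the settings from 0 to 19. Of 32 refits, left-out arrays and single slides per probe, Nampt A_52_P6328 was above 0 in all, Nampt A_51_P387235 turned in 1 (-0.01, scale normalization), Sirt1 A_52_P358612 in 1 (0.05, within slide 2), and the other 10 probes turned sign in 1 to 15. The cause was not tested. Cy3 was the weaker channel, with a median signal of 1.78 to 2.02 times background.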
